A study of Mus musculus with 6 samples.

Results

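The NF-κB transcription factor genes and genes listed as their feedback inhibitors were examined in RNAseq of cultured mouse pancreatic fibroblasts. The 10 genes, taken by symbol from the 14831 genes of the deposited count table, are the 5 subunits Nfkb1, Nfkb2, Rel, Rela and Relb and the 5 inhibitors Nfkbia, Nfkbie, Nfkbiz, Tnfaip3 and Bcl3. The name inhibitor is that of the list, since the proteins of Bcl3 and Nfkbiz can also raise transcription. All 10 genes were found and all 10 passed the filter on low counts. Immortalized fibroblasts of mixed strain were grown to confluence in separate wells, with 3 libraries of genotype WT and 3 of genotype Gli2-/-;Gli3-/- (KO), which asks what loss of these transcriptional effectors of Hedgehog signaling changes in fibroblasts. The parental lines came from adult pancreas of mice with floxed Gli alleles, and after immortalization they received a GFP adenovirus with a dsRed lentivirus (WT) or GFP and Cre adenoviruses (KO), and infected cells were then sorted. The groups thus differ in virus as well as in genotype, and these cannot be told apart here. No inflammatory stimulus is named for these wells, and neither the number of clones behind them nor the age and sex of the source animals is given in the sources used here. Replicates are wells, so the p values measure the spread between wells of these lines.

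The deleted genes give a check of the genotype. Gli2 was at 27.1 ± 1.19 CPM (read counts scaled to the effective library size; SD, n = 3) in the WT-labelled libraries and 56.2 ± 1.96 in the KO-labelled ones, and Gli3 was at 12.5 ± 0.0440 and 40.8 ± 1.64 CPM (edgeR adjusted p = 8.01e-10 and 2.10e-11). Counts over a whole gene do not show which exons were read, but both genes were higher in every KO-labelled library, which goes against the genotype named, so the libraries are named by their label, WT-labelled or KO-labelled, and all directions below follow the labels alone. Whether the labels were exchanged was not tested, and if they were, each direction below would turn. Library totals ranged from 31728420 to 41035931 counts. All 10 listed fibroblast markers had rows, summing to 57401 to 58135 CPM in the WT-labelled libraries and 47293 to 49654 in the KO-labelled ones. Thy1 did not pass the filter, with 4, 1 and 0 counts in the WT-labelled libraries and 19, 15 and 9 in the KO-labelled ones. Col1a1 was at 15982 and 16113 CPM, whereas Dcn (2643 and 905 CPM), Col3a1 (8970 and 4678), Pdgfra (301.5 and 162.1) and Pdgfrb (569.6 and 359.4) were lower in the KO-labelled libraries, each past the test and 1.5-fold. Of the leukocyte markers listed, 4 (Cd68, Csf1r, Lyz2 and Cd14) had rows, and Ptprc, Adgre1 and Itgam were among those not analysed here. The summed level of the 4 was 55.6 to 60.8 CPM in the WT-labelled libraries and 52.4 to 54.1 in the KO-labelled ones. The 4 of 8 epithelial markers with rows (Cdh1, Krt7, Krt8 and Cela1) summed to 11.7 to 14.1 and 37.6 to 39.5 CPM, and Epcam, Krt18, Krt19, Cpa1 and all 4 endothelial markers were not analysed here. The part of these cell types in the results below was not tested.

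NF-κB is a family of dimeric transcription factors that bind κB sites in DNA through a shared Rel homology domain. Rela, Rel and Relb also carry a transactivation domain, whereas Nfkb1 and Nfkb2 encode the precursors p105 and p100, whose processing gives p50 and p52 and whose unprocessed forms act as inhibitors. In resting cells IκB proteins such as those encoded by Nfkbia and Nfkbie hold the dimers in the cytoplasm until IκB kinase marks them for degradation. Bcl3 and Nfkbiz encode atypical IκB proteins of the nucleus that bind p50 or p52 and can raise or lower transcription of selected targets, and Tnfaip3 encodes A20, a ubiquitin-editing enzyme that shuts down signaling from receptors. Several of these genes, Nfkbia and Tnfaip3 among them, are textbook NF-κB targets themselves and so form feedback loops. In fibroblasts the pathway is known for driving inflammatory cytokines and adhesion molecules.

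The promoter letters of this family are shown first because several members are textbook NF-κB targets, although no feedback was measured here. Of the 10 genes, 7 had a promoter entry from RefSeq (GRCm38.p6, the build named by the submitters), spanning 250 bases before to 50 after a start site. Nfkb1, Relb and Nfkbiz had none. The κB consensus was searched on both strands, overlapping matches included. It was found in 6 of these 7 genes (Nfkb2, Rel, Nfkbia, Nfkbie, Tnfaip3 and Bcl3), whereas Rela had no match. The same search matched 5.14% of the 27025 genes with a promoter entry and 6.18% of the 9996 of them tested here. The 10 genes were chosen as NF-κB genes, so their share describes them and is not independent evidence about them. A match describes letters and does not show that a factor binds there.

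From 130 bases before the start site to 20 bases into the transcript, 5′ to 3′ on the strand of the gene, the 6 promoters with a match read as follows, with matches in capitals. The regions are chr12:55492628-55492777 (minus strand), chr17:45555570-45555719 (plus strand), chr10:19015391-19015540 (minus strand), chr7:19822736-19822885 (minus strand), chr19:46304607-46304756 (plus strand) and chr11:23770950-23771099 (minus strand).
Nfkbia: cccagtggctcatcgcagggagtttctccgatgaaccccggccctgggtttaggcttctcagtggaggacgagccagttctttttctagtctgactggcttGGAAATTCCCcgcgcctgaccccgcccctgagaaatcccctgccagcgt
Nfkbie: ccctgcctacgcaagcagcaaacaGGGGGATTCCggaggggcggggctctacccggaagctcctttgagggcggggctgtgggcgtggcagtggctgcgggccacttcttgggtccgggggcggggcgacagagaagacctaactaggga
Tnfaip3: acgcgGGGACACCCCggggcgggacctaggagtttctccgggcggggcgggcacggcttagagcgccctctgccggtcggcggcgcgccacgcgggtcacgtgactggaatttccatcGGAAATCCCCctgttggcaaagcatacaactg
Bcl3: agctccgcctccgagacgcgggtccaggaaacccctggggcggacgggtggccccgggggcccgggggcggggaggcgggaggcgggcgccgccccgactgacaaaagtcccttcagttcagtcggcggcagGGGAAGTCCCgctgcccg
Nfkb2: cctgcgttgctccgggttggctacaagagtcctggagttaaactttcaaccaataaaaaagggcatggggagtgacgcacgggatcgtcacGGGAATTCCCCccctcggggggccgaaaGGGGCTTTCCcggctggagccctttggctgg
Rel: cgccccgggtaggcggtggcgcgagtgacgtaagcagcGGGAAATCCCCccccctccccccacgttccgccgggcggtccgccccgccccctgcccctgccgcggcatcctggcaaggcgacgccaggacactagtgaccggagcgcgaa

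Counted to the first base of the match from the start site, it lay at -29 in Nfkbia, at -106 in Nfkbie and at base 3 of the transcript in Bcl3. Tnfaip3 had matches at -125 and -12 in the entry shown and none in its other entry. Nfkb2 had overlapping matches at -39 and -38 and another at -11, and its other 2 entries, which overlap each other, held matches too. The Rel matches at -92 and -91 overlap. Only promoters with a match are printed, so the 4 inhibitor promoters shown share one by selection. Nfkbiz had no promoter entry and could not be searched. The transcripts of these 4 genes, described next, did not all go in the same direction.

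Across the family, 7 of the 10 genes passed the test between the groups (edgeR's quasi-likelihood test, Benjamini-Hochberg adjusted p under 0.05 over 14289 genes), 4 higher and 3 lower in the KO-labelled libraries. This share stands beside a background in which 58.7% of all genes tested passed, 29.9% higher and 28.8% lower, and in which wells of a group differed little (common biological coefficient of variation 3.74%). Adding a limit of 1.5-fold left 2 genes, Nfkbiz higher and Nfkbie lower, against a background of 17.7% (11.6% higher and 6.10% lower). The groups did not overlap in CPM for 7 of the 10, where 64.2% of all tested genes had no overlap. The shares of the family are read against these, and the description below rests on the size of each change. The median absolute log2 fold change was 0.10 over the 5 subunits and 0.39 over the 5 inhibitors, against 0.22 over all genes tested.

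**Figure D1:**
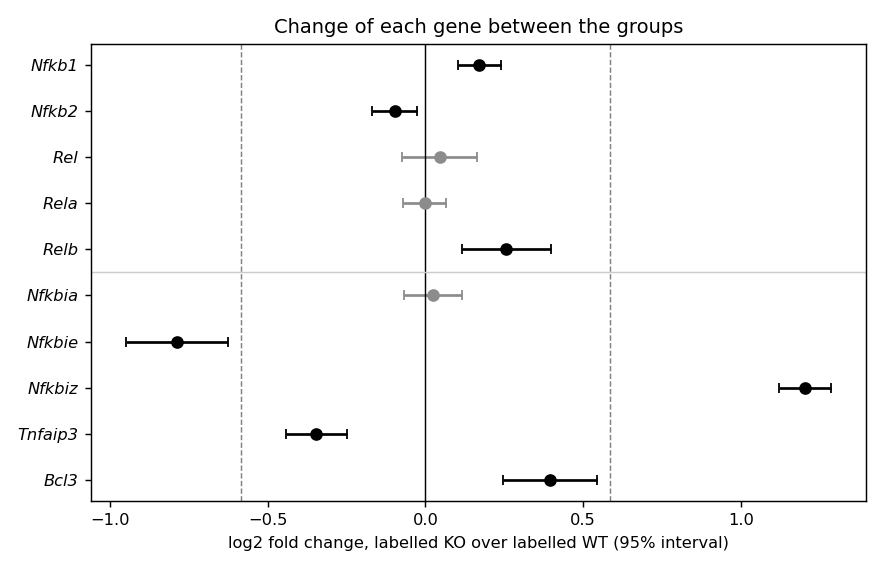
Log2 fold change of each gene, KO-labelled over WT-labelled libraries, with its 95% interval; dashed lines mark 1.5-fold, and genes in grey did not pass the test. Nfkbiz at 1.20 and Nfkbie at -0.79 lie outside the dashed lines, and all 5 subunits lie inside them.

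Nfkbiz, which encodes IκBζ, a nuclear coactivator of secondary response genes such as those of acute inflammation, had the largest change in the family and was higher in the KO-labelled libraries. It had 852, 893 and 840 counts in the WT-labelled libraries and 2152, 2623 and 2004 in the KO-labelled ones. In CPM this is 27.2, 26.7 and 26.3 against 60.8, 62.9 and 60.7. The groups lie far apart, with wells of a group differing by a coefficient of variation of 1.65% and 2.07%. The level was 2.30-fold higher, with a log2 fold change of 1.20 (95% interval 1.12 to 1.29, standard error 0.04, adjusted p = 4.79e-11). Nfkbiz lies on chromosome 16 from 55811375 to 55838899 in GENCODE M21 (GRCm38), used for all gene positions, with 15 exon blocks.

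Nfkbie, which encodes the cytoplasmic inhibitor IκBε, fell. Its level was 11.9, 11.8 and 11.8 CPM in the WT-labelled libraries and 7.40, 6.38 and 6.88 in the KO-labelled ones. The WT-labelled wells were almost equal, and the highest KO-labelled well stayed well under the lowest of them. On the log2 scale the difference was -0.79 (95% interval -0.95 to -0.62, standard error 0.07, adjusted p = 1.47e-06), a level 0.580 times that of the WT-labelled group. Nfkbie lies on chromosome 17 from 45555703 to 45563169.

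Bcl3 rose by less. Its level was 23.8, 24.1 and 20.8 CPM in the WT-labelled libraries and 33.0, 28.8 and 28.5 in the KO-labelled ones. Both groups held 1 well apart from the other 2, and the groups did not overlap. The difference was 1.31-fold, or 0.39 on the log2 scale (95% interval 0.25 to 0.54, standard error 0.07, adjusted p = 2.94e-04), under the 1.5-fold limit. Bcl3 is on chromosome 7 from 19808462 to 19822770, and 161 of its 2475 exon bases overlap Gm16175, an antisense gene not analysed here.

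Tnfaip3 moved the other way, with 47.3, 49.6 and 45.7 CPM in the WT-labelled libraries and 36.8, 38.9 and 36.4 in the KO-labelled ones. Every KO-labelled well lay under every WT-labelled one. The difference on the log2 scale was -0.35 (95% interval -0.44 to -0.25, standard error 0.04, adjusted p = 2.22e-05), also under the fold limit. Tnfaip3 is on chromosome 10 from 19000910 to 19015657.

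Nfkbia, which encodes IκBα, the inhibitor resynthesized first after NF-κB is activated, did not pass the test. It had 34.1, 32.9 and 32.6 CPM in the WT-labelled libraries and 34.3, 34.2 and 32.7 in the KO-labelled ones, and the groups overlap. The log2 fold change of 0.02 had a 95% interval from -0.07 to 0.12 (adjusted p = 0.641). Nfkbia is on chromosome 12 from 55489410 to 55492647. By the test alone, the 5 inhibitors thus divide into 2 that rose (Nfkbiz and Bcl3), 2 that fell and 1 that did not pass. This is 80% passing, beside 58.7% of all genes tested (29.9% higher and 28.8% lower). The split is therefore not read as a trait of the inhibitors.

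**Figure D2:**
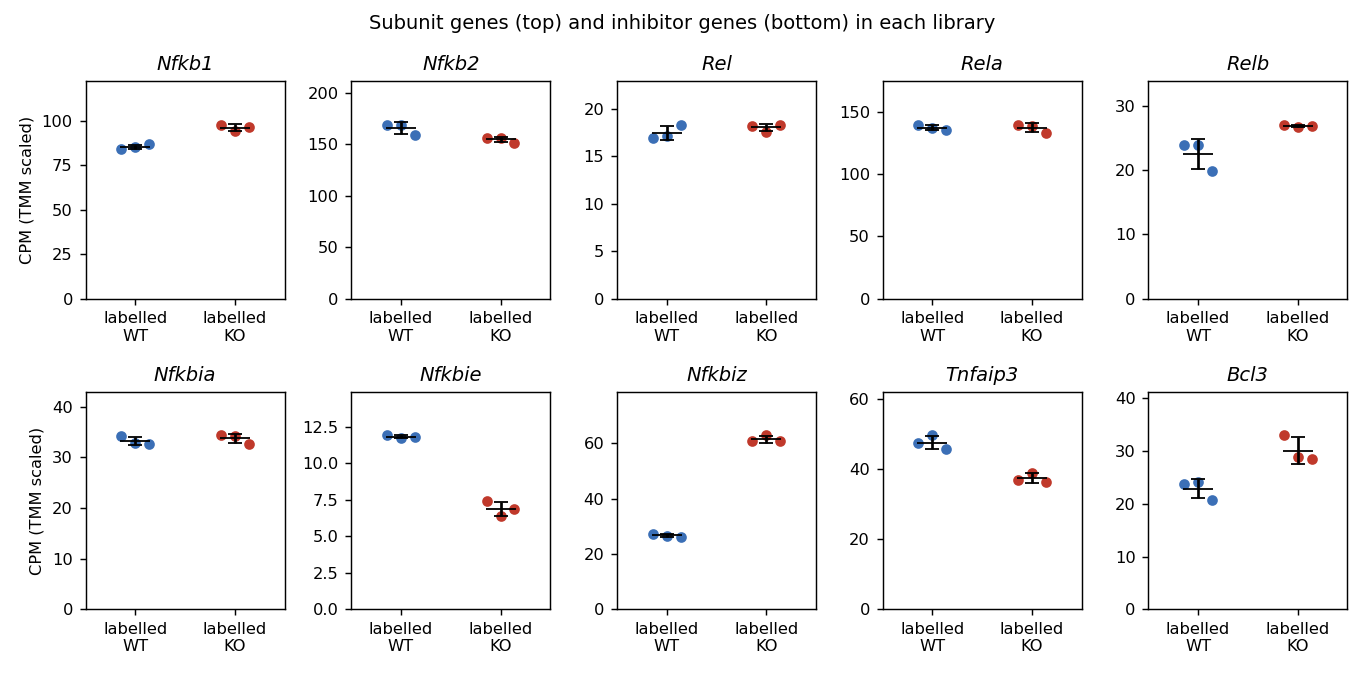
Level of each gene in each library in CPM, with the mean and SD of each group (n = 3) in black and every axis starting at 0. The points of the groups stand apart for Nfkbiz (26.3 to 27.2 against 60.7 to 62.9 CPM) and Nfkbie, and lie at about the same height for Rela and Nfkbia.

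The subunit genes moved little. Rela, the transactivating partner of the canonical dimer with p50, had 139.8, 137.2 and 135.7 CPM in the WT-labelled libraries and 139.9, 138.8 and 133.4 in the KO-labelled ones. The ranges overlap almost fully. Its log2 fold change was 0.00, with a 95% interval from -0.07 to 0.07 (adjusted p = 0.969), and the sign of so small a value turned with upper-quartile scaling (0.0553) and with total counts (0.0330). Rel, which encodes c-Rel, a subunit best known from lymphocytes, was low, with 16.9, 17.1 and 18.3 CPM against 18.2, 17.6 and 18.3. Its log2 fold change of 0.05 (95% interval -0.07 to 0.16, adjusted p = 0.499) did not pass either. Rela is on chromosome 19 from 5637483 to 5648130 and Rel on chromosome 11 from 23736847 to 23770970.

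Nfkb1 rose a little, from 84.3, 85.4 and 86.7 CPM to 97.9, 94.3 and 96.6. The groups did not overlap, and the change was small, at 1.13-fold (0.17 on the log2 scale, standard error 0.03, adjusted p = 4.74e-04). Nfkb1 lies on chromosome 3 from 135584655 to 135691547. Relb, which encodes the main partner of p52 in the noncanonical pathway, had 23.9, 23.9 and 19.8 CPM in the WT-labelled libraries and 27.1, 26.8 and 26.8 in the KO-labelled ones. The third WT-labelled well lay under the other 2, whereas the KO-labelled wells were nearly equal. The difference was 0.26 on the log2 scale (standard error 0.07, adjusted p = 0.00445), and without that well it was 0.17 (adjusted p = 0.0132). Relb is on chromosome 7 from 19606217 to 19629438, as is Bcl3.

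Nfkb2 went down slightly, from 168.9, 168.4 and 158.9 CPM to 156.2, 156.1 and 151.5. The lowest WT-labelled well exceeded the highest KO-labelled one by little, and the difference was -0.10 on the log2 scale (standard error 0.03, adjusted p = 0.0228). This call was lost when 1 library was left out: -0.08 without the first WT-labelled well (adjusted p = 0.0634), -0.09 without the second (adjusted p = 0.0916) and -0.08 without the third KO-labelled well (adjusted p = 0.0647). It was also lost with upper-quartile scaling (-0.04, adjusted p = 0.328), with total counts (-0.06, adjusted p = 0.130) and in limma on the deposited log2 values (-0.10, adjusted p = 0.0765). Nfkb2 lies on chromosome 19 from 46304320 to 46312385, and 11.6% and 6.52% of its exon bases overlap AC114539.1 and Psd on the opposite strand. Whether counting used strand is not given in the sources used here, and reads from the overlap cannot then be told apart. The levels of these neighbours were 4.67 and 4.07 CPM (AC114539.1, adjusted p = 0.145) and 18.0 and 16.4 CPM (Psd, adjusted p = 0.0647).

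Levels of different genes were compared per length, as TPM from the union of annotated exons. The union holds the exons of all annotated transcripts, so a gene with a long union is given a lower level. It was 12061 bases over 10 transcripts for Nfkb1 and 3072 bases for Rela. Which transcripts were read was not tested, so the order of genes depends on these lengths and may set Nfkb1 too low. In the WT-labelled libraries the order was Rela (171.8 ± 1.42 TPM, SD, n = 3), Nfkb2 (138.4 ± 2.18), Nfkbia (79.1 ± 0.962), Bcl3 (35.5 ± 2.15), Nfkb1 (27.2 ± 0.959), Tnfaip3 (25.2 ± 0.858), Relb (22.2 ± 1.92), Nfkbiz (20.4 ± 0.145), Nfkbie (14.9 ± 0.291) and Rel (8.98 ± 0.580). Among neighbours in this order, the libraries of Relb and Nfkbiz overlapped, and those of Nfkb1 and Tnfaip3 nearly met (lowest 26.3 and highest 26.2 TPM). The top 3 places were the same in the KO-labelled libraries, with Rela at 176.3 ± 4.29, Nfkb2 at 132.9 ± 2.32 and Nfkbia at 82.7 ± 2.18 TPM. Nfkbiz went from place 8 in the WT-labelled group to place 4 in the KO-labelled one, at 48.3 ± 1.15 TPM, where its libraries overlapped those of Bcl3 (48.0 ± 3.82). Nfkbie went from place 9 to place 10, at 8.91 ± 0.623 TPM, overlapping Rel (9.52 ± 0.191). By this measure, then, the transcripts of Rela and Nfkb2 were the most abundant of the family in both groups and Rel was among the lowest.

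**Figure D3:**
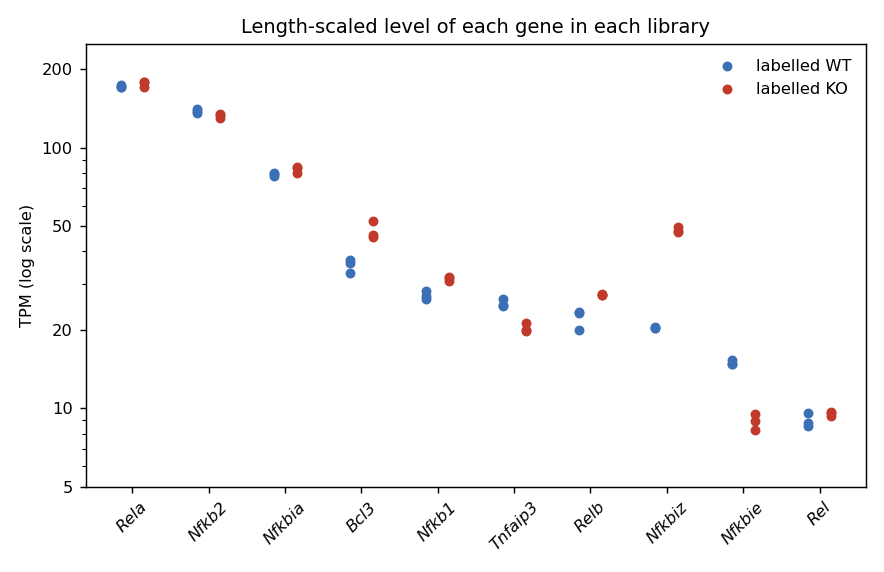
Length-scaled level (TPM, log axis) of each gene in every library, ordered by the WT-labelled mean. Rela and Nfkb2 stand at 130.3 TPM or more in every library, while Nfkbiz lies at 20.3 to 20.6 TPM in the WT-labelled libraries and 47.5 to 49.6 in the KO-labelled ones.

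Shares within a library do not depend on scaling between libraries, but their size depends on the exon lengths used for TPM. With 3 wells against 3, an exact two-sided permutation test of any one such quantity cannot go under p = 0.1, the value that all shares and ratios given here without a p reached. Rela made up 46.6% ± 0.564 of the summed subunit TPM in the WT-labelled libraries and 46.7% ± 0.354 in the KO-labelled ones (exact permutation p = 0.9). Nfkb2 took 37.5% ± 0.451 and 35.2% ± 0.143, Nfkb1 7.38% ± 0.276 and 8.34% ± 0.209, and Relb 6.02% ± 0.502 and 7.23% ± 0.112. The mixture of subunit transcripts thus shifted by at most a few percentage points. That of the inhibitors shifted more. Nfkbiz took 11.7% ± 0.197 of the summed inhibitor TPM in the WT-labelled libraries and 23.2% ± 0.783 in the KO-labelled ones. Nfkbie went from 8.52% ± 0.251 to 4.28% ± 0.279 and Tnfaip3 from 14.4% ± 0.429 to 9.80% ± 0.400. Nfkbia held the largest share in both, 45.2% ± 0.853 and 39.7% ± 0.441.

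The ratio of Nfkbiz to Nfkbia was 0.255, 0.260 and 0.259 in the WT-labelled libraries and 0.568, 0.590 and 0.595 in the KO-labelled ones, 2.26 times as high. The ratio of Nfkbie to Nfkbia was 0.185, 0.189 and 0.192 against 0.114, 0.0986 and 0.111. Summed over the 5 genes, inhibitor transcripts stood at 0.475 ± 0.00323 of the subunit transcripts in the WT-labelled group and 0.552 ± 0.00671 in the KO-labelled group, with no overlap. The higher sum rests mainly on Nfkbiz (mean 20.4 TPM WT-labelled and 48.3 KO-labelled) and Bcl3 (35.5 and 48.0). Both encode proteins that can also raise transcription. Nfkbia stood at 79.1 and 82.7 TPM, whereas Nfkbie (14.9 and 8.91) and Tnfaip3 (25.2 and 20.4) were lower. The sum is therefore no measure of restraint. All ratios here are of transcripts and not of proteins.

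**Figure D4:**
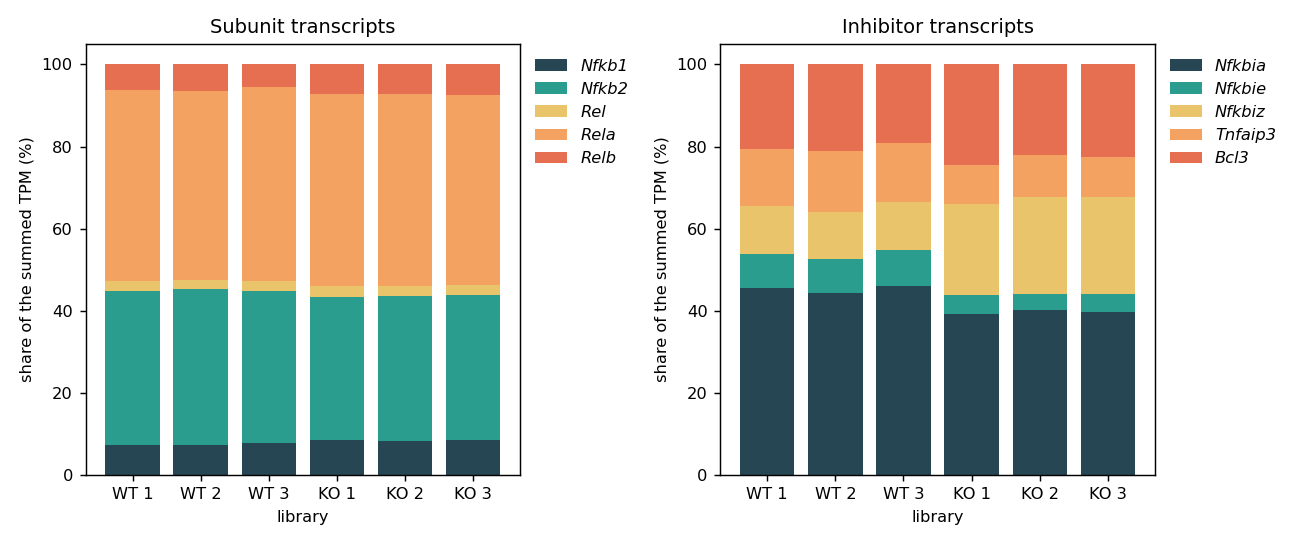
Share of each gene in the summed TPM of the 5 subunit genes (left) and the 5 inhibitor genes (right), as stacked bars for each library. The subunit bars look alike in all 6 libraries, whereas the Nfkbiz segment takes 11.5% to 11.9% of the inhibitor bars in the WT-labelled libraries and 22.3% to 23.7% in the KO-labelled ones.

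The rest of the pathway was read from lists of 112 genes by role, of which 87 were tested. Of the 87, 54 passed the test, 29 higher and 25 lower, and 14 also passed the fold limit, 9 higher and 5 lower. These are shares of 62.1% and 16.1%, beside 58.7% and 17.7% of all genes tested. Their median absolute log2 fold change was 0.21, next to 0.22 over all genes tested. Among 13 other inhibitors and feedback genes 7 passed (53.8%, beside 58.7% of all genes), 4 higher and 3 lower, and 1 passed the fold limit (7.69%, beside 17.7%). That gene, named here after its values were seen, was Nfkbid, which encodes a further atypical nuclear IκB. Nfkbid had 1, 0 and 0 counts in the WT-labelled libraries and 19, 14 and 16 in the KO-labelled ones, a ratio of 43.1 that 1 WT-labelled count leaves very uncertain (95% exact interval 7.38 to 1735.2, counting error only). Nfkbil1, an IκB-like gene of the same list, was lower, with 26.2 ± 1.48 and 23.4 ± 0.178 CPM (log2 fold change -0.16, adjusted p = 0.0161). Nfkbib, which encodes the cytoplasmic IκBβ, had 20.4 ± 0.672 and 20.2 ± 0.644 CPM and did not pass (log2 fold change -0.01, adjusted p = 0.873).

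Of 31 kinases and adaptors, 16 passed (51.6%, beside 58.7% of all genes), 6 higher and 10 lower, and only Birc3 passed the fold limit (3.23%, beside 17.7%). Birc3 encodes cIAP2, a ubiquitin ligase of the TNF receptor complex and a textbook NF-κB target. It had 5, 4 and 8 counts in the WT-labelled libraries and 244, 293 and 274 in the KO-labelled ones, a difference of 5.36 on the log2 scale (standard error 0.21, adjusted p = 2.92e-10). Its relative Birc2 (cIAP1) was at 37.2 ± 0.113 and 44.1 ± 0.723 CPM, a log2 fold change of 0.24 (adjusted p = 9.54e-05). The catalytic IκB kinase genes Chuk (59.9 ± 1.98 and 57.1 ± 0.790 CPM, adjusted p = 0.131) and Ikbkb (81.1 ± 2.17 and 84.6 ± 3.28 CPM, adjusted p = 0.190) did not pass. Their regulatory subunit gene Ikbkg was lower, with 152.0 ± 0.955 and 122.8 ± 1.96 CPM (log2 fold change -0.31, adjusted p = 1.53e-06). Map3k14, which encodes the NF-κB-inducing kinase of the noncanonical pathway, did not pass (50.4 ± 1.78 and 51.5 ± 2.62 CPM, adjusted p = 0.551).

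Among 11 receptor genes tested, 6 were higher and 2 lower (72.7% passed, beside 58.7% of all genes). The fold limit left Tlr2 and Tlr5 (18.2%, beside 17.7%), which encode receptors of bacterial lipoproteins and flagellin. Tlr2 had 52, 60 and 76 counts in the WT-labelled libraries and 227, 298 and 230 in the KO-labelled ones (log2 fold change 1.82, adjusted p = 9.35e-08). Tlr5 had 50, 57 and 50 counts and 172, 197 and 149 (log2 fold change 1.53, adjusted p = 1.88e-07). The 2 lower ones, chosen after their values were seen, were Tnfrsf1b (log2 fold change -0.53, adjusted p = 1.05e-06) and the endotoxin receptor gene Tlr4 (-0.41, adjusted p = 9.43e-06). The remaining higher ones, also under the fold limit, were Il1r1 (0.55, adjusted p = 3.48e-08), Tlr3 (0.50, adjusted p = 1.11e-05), Tlr6 (0.38, adjusted p = 0.0476) and Il1rap (0.35, adjusted p = 1.86e-05). The main TNF receptor gene Tnfrsf1a did not pass, at 275.3 ± 9.60 and 273.3 ± 2.90 CPM (adjusted p = 0.792). Of 10 ligand genes 2 were tested. Both passed (100%, beside 58.7% of all genes) and 1 passed the fold limit (50%, beside 17.7%), shares that rest on 2 genes. Tnfsf13b, encoding the cytokine BAFF, was higher (16, 12 and 13 counts against 36, 35 and 42, log2 fold change 1.27, adjusted p = 9.45e-04) and Tnfsf12 lower (-0.32, adjusted p = 1.02e-04). Tnf, Il1a and Il1b, the classical inducers, were among those not analysed here.

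Of 41 listed NF-κB target genes 30 were tested, and they went both ways: 12 were higher and 9 lower, and past the fold limit 4 were higher and 5 lower. In all 70.0% passed, beside 58.7% of all genes, and 30.0% passed the fold limit, beside 17.7%. Tnfaip2 had 337, 285 and 258 counts in the WT-labelled libraries and 39, 38 and 31 in the KO-labelled ones, a difference of -3.21 on the log2 scale (standard error 0.15, adjusted p = 2.41e-09). Ccl5 and Cxcl10, both encoding T cell chemoattractants, were lower as well. Ccl5 had 32, 41 and 31 counts against 0, 2 and 2, with summed counts 29.6 times as high in the WT-labelled group (95% exact interval 11.2 to 110.6). For Cxcl10 the counts were 57, 30 and 26 against 9, 13 and 12 (log2 fold change -1.91, adjusted p = 5.63e-04). The other 2 past the limit, Mmp3 at -0.98 and the adhesion molecule gene Vcam1 at -0.59, are named after their values were seen. In the other direction the chemokine gene Cx3cl1 differed by 0.88 on the log2 scale (adjusted p = 7.34e-07), the early response gene Ier3 by 0.84 (adjusted p = 4.34e-07) and the immunoproteasome gene Psmb9 by 0.69 (adjusted p = 0.00636). Saa3, also higher and named after its values were seen, had 3, 3 and 2 counts in the WT-labelled libraries and 30, 29 and 18 in the others, a ratio of 8.46 (95% exact interval 4.08 to 20.3). The cytokine gene Il6, also named after its values were seen, had 84, 106 and 98 counts against 150, 177 and 117 (log2 fold change 0.44, adjusted p = 0.00759). Among those that did not pass were Ccl2 (adjusted p = 0.600), Irf1 (adjusted p = 0.989) and Icam1 (adjusted p = 0.481). With a minimum of 10 counts in each of the 6 libraries, 8 genes of the lists passed both limits in place of 14. The share of all genes passing under that minimum was not counted.

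**Figure D5:**
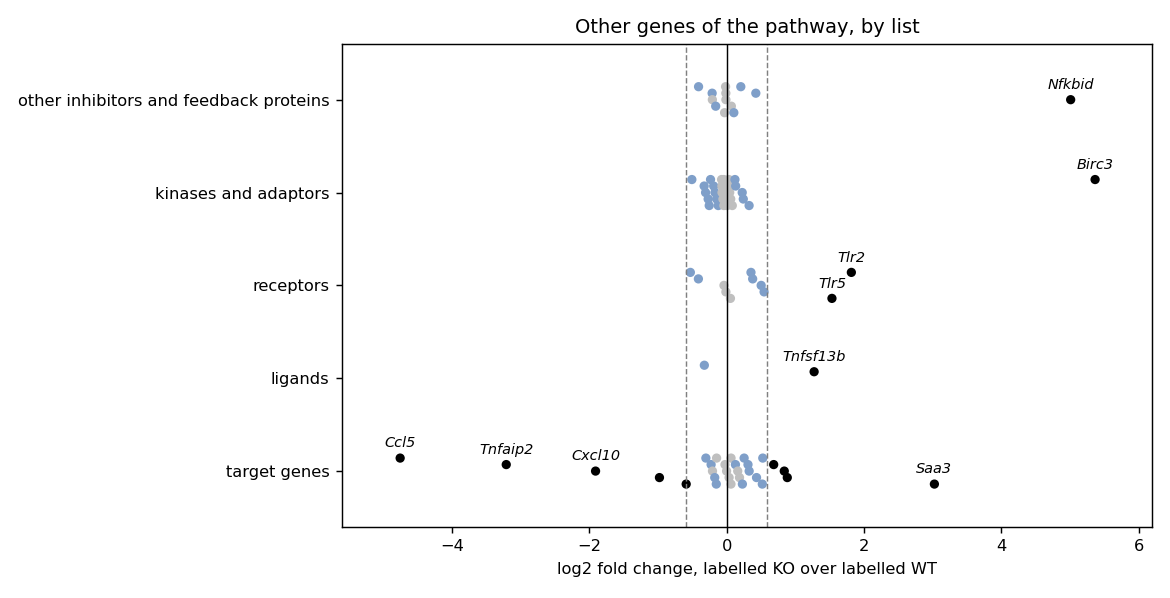
Log2 fold change (KO-labelled over WT-labelled) of the 87 tested genes of the pathway, by list; genes in black passed the test and 1.5-fold (dashed lines), those in blue the test alone and those in grey neither. Nfkbid, Saa3 and Ccl5 have a group with at most 3 counts a library, so that their fitted place depends on the prior count; most genes lie between the dashed lines, with Birc3 at 5.36 and Tnfaip2 at -3.21 among those far outside.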

How the data were processed

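Per the labels, polyadenylated RNA of 6 wells of immortalized pancreatic fibroblasts was sequenced. The submitters' processing notes name STAR 2.7.2b, featureCounts, limma and GRCm38.p6. The authors deposited raw counts per gene, and log2 CPM values from limma's voom, for 14831 genes. Groups follow the genotype label, and replicates of a group were numbered in accession order.

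Counts were tested with edgeR 4.0.16 (R 4.3.3) by TMM, filterByExpr and the quasi-likelihood F test across all 14289 genes passing the filter. Standard errors come from the log2 fold change and its F statistic. TPM used exon unions of GENCODE M21, which matched 14822 identifiers. Totals are 31728420 to 41035931 counts, and 3 counts equal 0.0720 to 0.0957 CPM. Counting intervals are exact (Clopper-Pearson) and cover counting error only. Pairs of libraries of a group differed by a chi-square per degree of freedom of 2.47 to 7.53, so none was merged. The script was tested on simulated data.

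The members, lists and 1.5-fold limit were chosen with earlier results of these data known. Named were all 10 members, Gli2 and Gli3, and up to 3 genes per list and direction past both limits with the largest change and at least 1 CPM in the higher group. Genes named for their role outside this rule were chosen after values were seen. Alternatives were scaling by RLE, by upper quartiles or by total counts, other filters and fold limits, DESeq2 1.42.0, limma 3.58.1 on counts and on the deposited log2 values, and leaving out each library.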

Additional observations from a re-analysis of the deposited data

How the results depend on the processing

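Nfkbiz and Nfkbie were the 2 family genes past both limits under every scaling, filter and tool tried and without each library in turn (2 to 2). The fold limit moved the counts: with none, 7 family genes and 54 of the other pathway genes passed, and at 2-fold 1 (Nfkbiz) and 9 did. With no limit 58.7% of all genes tested passed. The share of all genes was not counted at 2-fold or under the alternatives that follow. Those counts show how the calls moved and are not read as a trait of these genes. Requiring 10 counts in every library left 8 pathway genes, as fewer low genes were tested, and leaving out a library gave 13 to 15. By the test alone, 6 to 7 members passed under each alternative, the one lost being Nfkb2. Of 140 refitted member values 129 kept direction and side of the threshold. Nfkb2 lost its call in 6, and Rela, which never passed, changed sign in 5, to 0.0553 with upper-quartile scaling, 0.0330 with total counts, 0.00562 with the count minimum, 0.00857 without the first WT-labelled well and 0.0199 without the third KO-labelled one (-0.0194 to 0.0199 over left-out libraries), so Rela has no direction here. The ranges over all alternatives were 1.18 to 1.26 for Nfkbiz, -0.85 to -0.73 for Nfkbie, -0.38 to -0.29 for Tnfaip3, 0.32 to 0.45 for Bcl3, 0.17 to 0.31 for Relb and 0.15 to 0.23 for Nfkb1. No paired analysis was possible because the labels number libraries and give no replicate number that the groups share. Depth limits the low genes (Nfkbid, Saa3, Ccl5 and Birc3), and wells do not show the spread between independently made lines.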

Other observations

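The lowest and highest well of each group was noted for each family gene. In CPM, the third WT-labelled well was the lowest of its group for 7 of the 10 genes (Nfkb2, Rela, Relb, Nfkbia, Nfkbiz, Tnfaip3 and Bcl3) and the highest for Nfkb1 and Rel. The first KO-labelled well was the highest of its group for 7 and the lowest for 0, and the third was the lowest for 6. The same was not counted over all genes tested, so these counts are not read as a trait of the family. They also depend on scaling: in TPM the third WT-labelled well was the highest of its group for Rela (173.3) and Nfkbiz (20.6). The family spans a wide range of the transcriptome: by mean CPM, Nfkb2 stood at the 91.3 percentile of tested genes and Rela at 89.5, whereas Nfkbie stood at 34.7 and Rel at 45.1. By the absolute size of the change, Nfkbiz was at the 91.8 percentile, Nfkbie at 86.3 and Rela at 0.434.

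In the promoter entries of the other pathway lists, the κB consensus was matched in 11 of 28 target genes (39.3%) and 5 of 12 other inhibitors and feedback genes (41.7%). It was matched in 3 of 12 receptors (25.0%), 3 of 26 kinases and adaptors (11.5%) and 1 of 8 ligands (12.5%). The same search matched 5.14% of all genes with a promoter entry and 6.18% of those tested. The lists were drawn up as NF-κB genes, so these counts describe them and are not independent evidence about them.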
